A study of Mus musculus with 24 samples.

Results

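Expression of 10 genes of microglia and of complement C1q was followed in the whole spinal cord of 24 mice aged 8 weeks. The genes were chosen by name (Tmem119, P2ry12, Cx3cr1, Csf1r, Aif1, C1qa, C1qb, C1qc, Trem2 and Tyrobp), matched by gene identifier, and make up 10 of the 38924 genes in the deposited tables. All 10 were among the 17409 genes with enough counts to be tested. The animals carried 1 P278KY mutant copy of Gars, the glycyl-tRNA synthetase gene mutated in a form of Charcot-Marie-Tooth neuropathy, or 2 wild-type copies. Each Gars genotype was combined with loss of 2 copies (Gcn2-/-), 1 copy (Gcn2+/-) or no copy (Gcn2+/+) of Gcn2, the eIF2 kinase encoded by Eif2ak4. The groups were Gcn2-/- with mutant Gars (5 libraries) and with wild-type Gars (3), Gcn2+/- with mutant Gars (4) and with wild-type Gars (4), and Gcn2+/+ with mutant Gars (4) and with wild-type Gars (4). All animals have the labelled background B6J;CASTxB6.129, and both sexes were used (11 females and 13 males). The design asks whether the response of the cord to mutant Gars depends on Gcn2. The labels give each library its own animal number but do not say in words that no animals were pooled, so the p values below measure the spread between these libraries.

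Microglia are the resident macrophages of the central nervous system, and resting microglia carry a set of surface receptors with which they sense neurons and damage. They are also the main source of C1q in the nervous system, the recognition molecule that starts the classical complement cascade and can tag synapses and debris for uptake. In models of motor neuron disease, microglia are known to lower some of the resting receptors and to raise genes that depend on the lipid receptor TREM2 and its signalling adaptor TYROBP. In whole tissue, a change in the number of microglia and a change in RNA per microglial cell cannot be told apart.

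The C1q subunit genes lie side by side on chromosome 4 of GRCm38, in the order C1qb, C1qc and C1qa over 18675 bases (136880129 to 136898803, minus strand), with gaps of 3616 and 2851 bases and 0 other annotated genes between them. The other members are scattered: P2ry12 lies on chromosome 3 (59216272 to 59262871, minus strand), Tmem119 on chromosome 5, Tyrobp on chromosome 7, Cx3cr1 on chromosome 9, and Aif1 and Trem2 on chromosome 17. No sequence is shown for Csf1r. Promoter windows of 300 bases (250 before and 50 after the start site), taken from RefSeq on GRCm38.p6, were used for 6 of the 10 genes: P2ry12, Cx3cr1, Aif1, C1qb, C1qc and Trem2. None was found for C1qa, Tmem119 and Tyrobp, and Csf1r was left out of the search. The windows of C1qb and C1qc, whose levels moved together, and of P2ry12, whose levels did not follow them, are shown 5′ to 3′ on the strand of the gene. Capitals mark matches on either strand to GAGGAA or GGAAGT, short forms of the site bound by PU.1 and other ETS factors, PU.1 being the factor that specifies myeloid cells.
P2ry12, chr3:59262936-59263235, minus strand: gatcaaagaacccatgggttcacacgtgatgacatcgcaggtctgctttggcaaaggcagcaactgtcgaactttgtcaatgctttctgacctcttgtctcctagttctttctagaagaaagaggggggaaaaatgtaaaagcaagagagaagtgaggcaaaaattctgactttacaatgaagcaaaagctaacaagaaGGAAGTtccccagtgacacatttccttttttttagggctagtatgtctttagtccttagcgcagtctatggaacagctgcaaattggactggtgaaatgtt
C1qb, chr4:136886151-136886450, minus strand: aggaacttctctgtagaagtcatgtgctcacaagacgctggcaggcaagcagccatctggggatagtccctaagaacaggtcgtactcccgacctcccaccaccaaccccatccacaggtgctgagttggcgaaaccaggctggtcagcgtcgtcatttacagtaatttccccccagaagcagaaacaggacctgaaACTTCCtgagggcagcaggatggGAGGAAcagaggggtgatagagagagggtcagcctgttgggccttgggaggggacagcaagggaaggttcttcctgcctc
C1qc, chr4:136892865-136893164, minus strand: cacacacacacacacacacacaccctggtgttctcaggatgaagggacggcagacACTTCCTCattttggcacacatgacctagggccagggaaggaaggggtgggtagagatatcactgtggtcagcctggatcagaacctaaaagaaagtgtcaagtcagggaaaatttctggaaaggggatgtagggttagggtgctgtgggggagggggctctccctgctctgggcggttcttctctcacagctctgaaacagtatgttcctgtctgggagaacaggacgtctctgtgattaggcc
C1qb holds 1 match to each motif, C1qc holds 1 of each and they overlap, and P2ry12 holds 1 match, to GGAAGT. Of the 6 windows, 4 hold GAGGAA, 3 hold GGAAGT and 5 hold either, while 43.4% of all 32851 mouse promoter windows hold either (28.3% GAGGAA and 23.8% GGAAGT). The TATA box TATAAA was found in 0 of the 6 windows and in 13.6% of all windows. The motifs are common, and a match here is a description of the sequence only.

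Library totals ran from 19727467 to 32392753 expected counts. Eif2ak4 lay at 11.4 to 15.0 CPM (counts scaled to library size, with TMM factors) in the 8 Gcn2-/- libraries, 20.4 to 23.6 in the 8 Gcn2+/- libraries and 28.9 to 34.4 in the 8 Gcn2+/+ libraries, so the Gcn2 labels were separate in the data. The Gars allele changes the protein, so the level of its RNA is no check of the Gars labels. Of 11 Schwann cell genes, which mark nerve root in a cord sample, the summed level was 1070 and 2330 CPM in Gcn2+/+ mutant libraries 2 and 4, 1060 and 1970 CPM in Gcn2+/- wild-type Gars libraries 1 and 3, 294 CPM in Gcn2+/- mutant library 4, and 68.9 to 127 CPM in the other libraries. The titles of the libraries begin with 1 of 8 numbers whose meaning is not stated, and these fall into a lower and a higher set with 12 libraries each.

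All 10 microglial genes had counts in every library, Aif1 with the fewest (33 to 134 expected counts) and Csf1r with the most (1323 to 3780). On the scale of deposited TPM, which divides by length and so allows genes to be compared, the C1q subunits led: C1qa averaged 61.4, C1qb 50.5 and C1qc 45.2 TPM over the 24 libraries. Tyrobp (44.2 TPM) and Csf1r (44.1 TPM) came next, then Cx3cr1 (22.3), P2ry12 (18.6), Tmem119 (12.9), Trem2 (12.4) and Aif1 (9.02). C1qa exceeded C1qb in 24 of 24 libraries and Csf1r exceeded Cx3cr1 in 24 of 24. By contrast C1qc exceeded Tyrobp in only 13 libraries, Tyrobp exceeded Csf1r in 14, and Tmem119 exceeded Trem2 in 15, so these neighbours in the order were not separate.

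The C1q subunits are made from separate genes and joined in equal numbers into 1 protein. C1qa had 27.2, 25.0, 25.0, 28.7 and 26.7 CPM in Gcn2-/- mutants and 22.9, 17.1 and 20.1 CPM in Gcn2-/- mice with wild-type Gars. In Gcn2+/- mice, C1qa had 30.7, 29.4, 26.7 and 26.3 CPM with mutant Gars and 26.2, 26.0, 69.1 and 19.6 CPM with wild-type Gars. In Gcn2+/+ mice, C1qa had 30.3, 20.6, 19.7 and 34.8 CPM with mutant Gars and 34.0, 25.6, 17.4 and 28.5 CPM with wild-type Gars. The mutant and wild-type groups overlapped in Gcn2+/+ mice, did not overlap in Gcn2-/- mice, and in Gcn2+/- mice a single wild-type library lay far above all others. C1qb ran from 15.2 to 56.5 CPM and C1qc from 13.3 to 58.8 CPM, with the same library highest in both. The ratio of C1qa to C1qb in CPM stayed between 1.03 and 1.32, and the SD of the log2 ratio (0.09) was far below the SD of log2 C1qa itself (0.41).

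Among the resting receptors, Tmem119 encodes a membrane protein used as a marker of microglia, P2ry12 the ADP receptor with which their processes find injury, Cx3cr1 the receptor of the neuronal chemokine fractalkine, and Csf1r the receptor of the survival factors CSF1 and IL-34. P2ry12 had 22.4, 20.7, 13.6, 20.9 and 20.1 CPM in Gcn2-/- mutants and 15.7, 22.2 and 17.9 CPM in Gcn2-/- mice with wild-type Gars. In Gcn2+/- mice, P2ry12 had 16.2, 23.8, 23.6 and 22.1 CPM with mutant Gars and 18.9, 17.1, 13.6 and 11.9 CPM with wild-type Gars. In Gcn2+/+ mice, P2ry12 had 20.7, 20.4, 20.6 and 21.1 CPM with mutant Gars and 18.9, 25.8, 18.4 and 30.6 CPM with wild-type Gars. P2ry12 was thus lowest in the Gcn2+/- wild-type Gars group, at 15.4 ± 3.19 CPM (SD, n = 4), and highest in the Gcn2+/+ wild-type Gars group, at 23.4 ± 5.85 CPM (SD, n = 4), and these groups overlapped between 18.4 and 18.9 CPM.

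Csf1r had 86.5, 100, 92.0, 94.7 and 88.3 CPM in Gcn2-/- mutants and 72.1, 71.6 and 71.5 CPM in Gcn2-/- mice with wild-type Gars. In Gcn2+/- mice it had 86.8, 88.4, 92.3 and 87.9 CPM with mutant Gars and 92.1, 95.3, 162 and 67.4 CPM with wild-type Gars. In Gcn2+/+ mice it had 101, 88.6, 84.2 and 112 CPM with mutant Gars and 110.0, 91.5, 67.2 and 103 CPM with wild-type Gars. The 3 Gcn2-/- wild-type Gars libraries were close together and low, though 2 libraries of other wild-type Gars groups were lower still. Csf1r is overlapped by Hmgxb3 on the opposite strand, and its expected counts were not whole in any of the 24 libraries.

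Tmem119 had 13.3, 15.5, 12.9, 13.7 and 13.7 CPM in Gcn2-/- mutants, against 11.9, 7.61 and 10.6 CPM in Gcn2-/- mice with wild-type Gars, and ran from 8.86 to 21.6 CPM in the other groups. Cx3cr1 ran from 30.5 to 50.1 CPM in Gcn2-/- mutants, 31.3 to 35.7 in Gcn2-/- mice with wild-type Gars and 27.0 to 50.3 in the other 4 groups. Aif1, which encodes the cytoplasmic calcium-binding protein IBA1, stayed between 1.68 and 5.74 CPM. Trem2 ran from 3.47 to 15.5 CPM and Tyrobp from 3.51 to 15.6 CPM. The member with the smallest spread over the 24 libraries was Cx3cr1 (coefficient of variation 17.6%) and the one with the largest was C1qa (36.8%), but both ranks rested on 1 library. Without Gcn2+/- wild-type Gars library 3, Csf1r had the smallest and Tyrobp the largest (23.8%), with C1qa at 19.0% and Cx3cr1 at 17.4%.

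**Figure D1:**
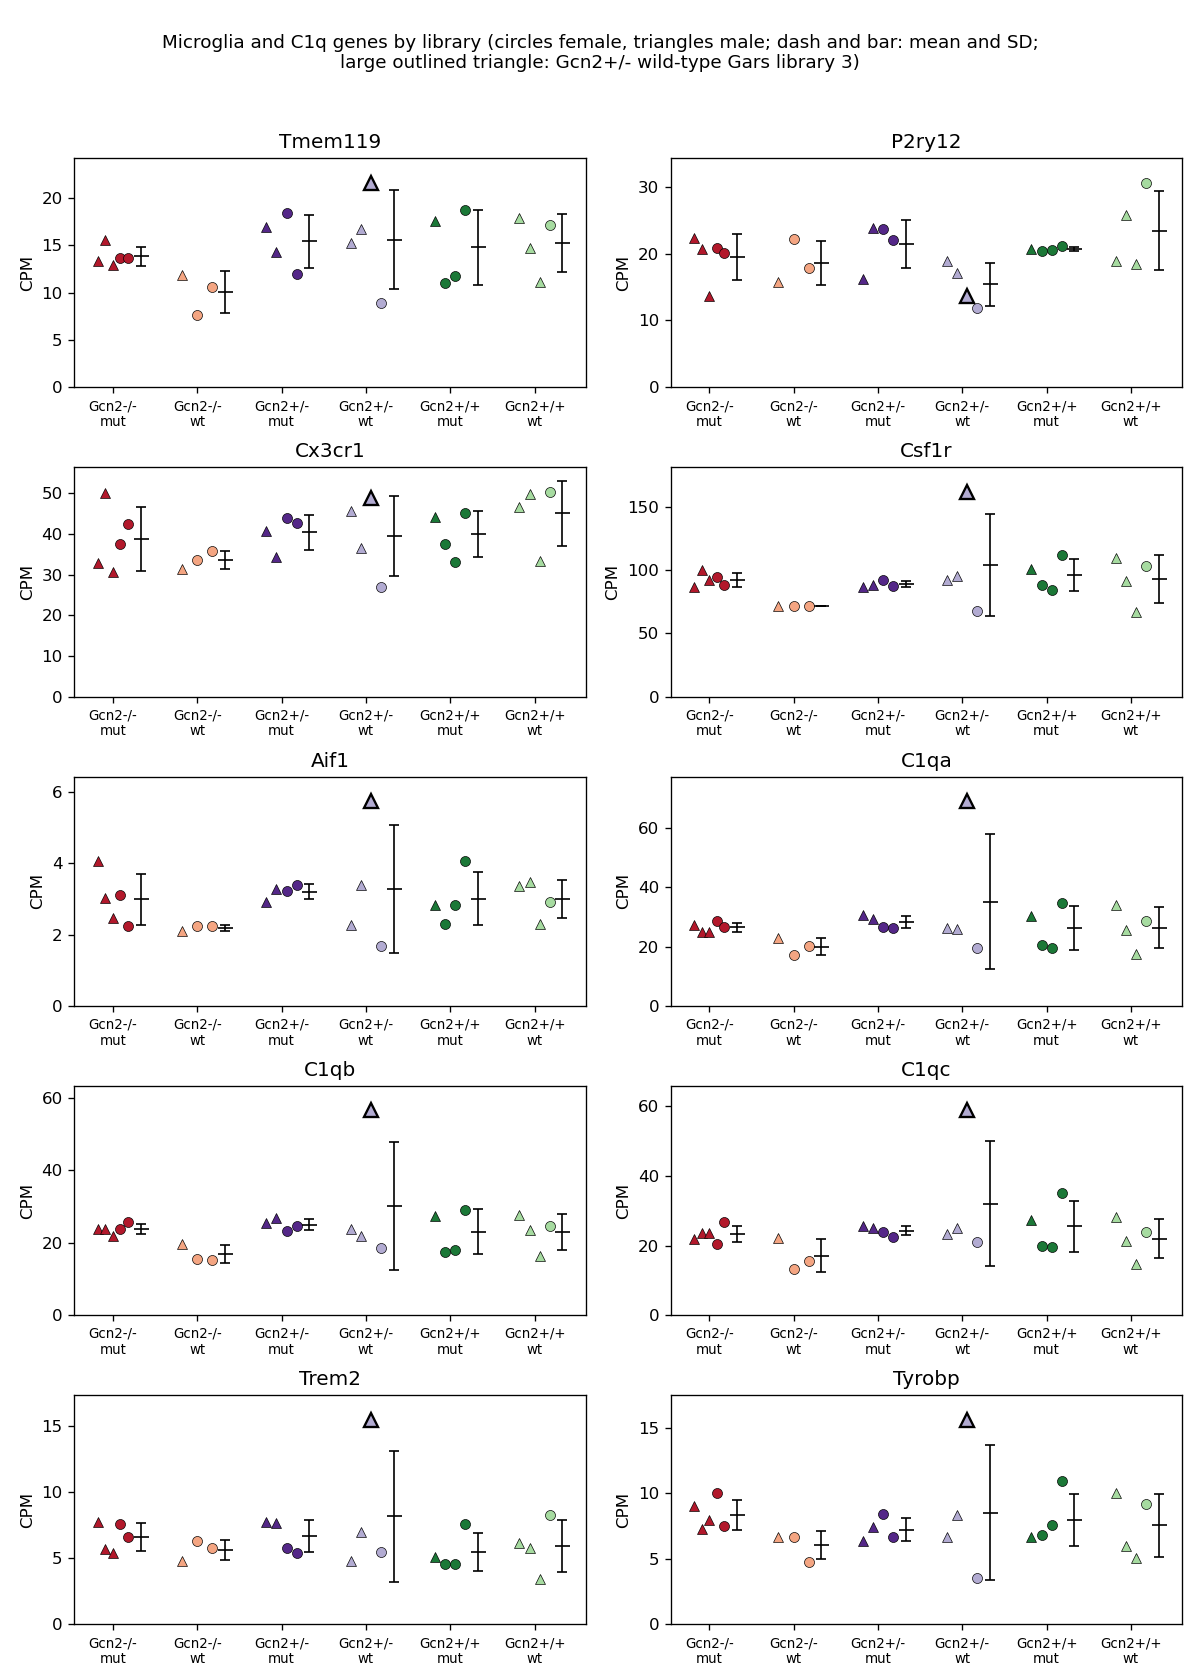
Level of each of the 10 genes in CPM (vertical axis, from 0) in each of the 24 libraries, by Gcn2 genotype and by mutant (mut) or wild-type (wt) Gars, with circles for females, triangles for males, and dash and bar for the group mean and SD. The large outlined triangle is Gcn2+/- wild-type Gars library 3, the highest of all libraries for 8 of the 10 genes but at 13.6 CPM for P2ry12.

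That library, the third of the Gcn2+/- wild-type Gars group (a male), held the highest value of 8 of the 10 genes. Its C1q levels were 69.1 CPM for C1qa, 56.5 for C1qb and 58.8 for C1qc, against maxima of 34.8, 29.1 and 35.1 in the other 23 libraries. Trem2 stood at 15.5 CPM there against at most 8.26 in the others, Csf1r at 162 against 112, Aif1 at 5.74 against 4.06, and Tyrobp at 15.6 against 10.9. These are 2.7 times the mean of the other 23 libraries for C1qa, 2.56 times for Trem2, 2.11 for Tyrobp, 1.82 for Csf1r and 1.54 for Tmem119. Cx3cr1 (48.9 CPM) ranked 4 of 24. P2ry12 went the other way, with 13.6 CPM, rank 22 and 0.676 times the mean of the others. The C1qa to P2ry12 ratio was therefore 5.07 there, against 0.768 to 1.9 in the other libraries, while the C1qa to C1qb ratio (1.22) lay within the range of the others.

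The same library was highest for 7.78% of the 17409 tested genes. Of 18 tested genes raised in disease-associated microglia it was highest for 9, of 14 of TREM2 and TYROBP signalling for 9, and of 19 further resting microglia genes for 8. It was also highest for 6 of 14 astrocyte genes, 5 of 13 cytokine and interferon genes, 7 of 22 other complement genes, 5 of 14 ligand and transcription factor genes, 3 of 11 Schwann cell genes and 3 of 12 endothelial and pericyte genes. For oligodendrocyte and neuron genes it was highest for 0 of 8 each. Chosen after their values were seen, Itgax, an integrin of activated microglia, had 4.54 CPM against 0.189 to 1.59 in the others, and Clec7a, a pattern receptor of the same state, had 5.4 CPM against 0.397 to 2.66. Its sum of Schwann cell genes (1970 CPM) and of meningeal genes (726 CPM) was also high, as was that of border macrophage genes (49.4 CPM). It was highest for 0 of 10 meningeal genes and 0 of 8 border macrophage genes. Gcn2+/+ mutant library 4 had 2330, 1270 and 74.2 CPM of these with C1qa at 34.8 CPM. In Gcn2+/+ mutant library 2 and Gcn2+/- wild-type Gars library 1, with Schwann cell sums of 1070 and 1060 CPM, C1qa was at 20.6 and 26.2 CPM. The part of these tissues in the C1q levels was not tested. For monocyte, neutrophil and bone marrow genes the library was highest for 0 of 10. Its Eif2ak4 level (23.1 CPM) was that of a Gcn2+/- animal.

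**Figure D2:**
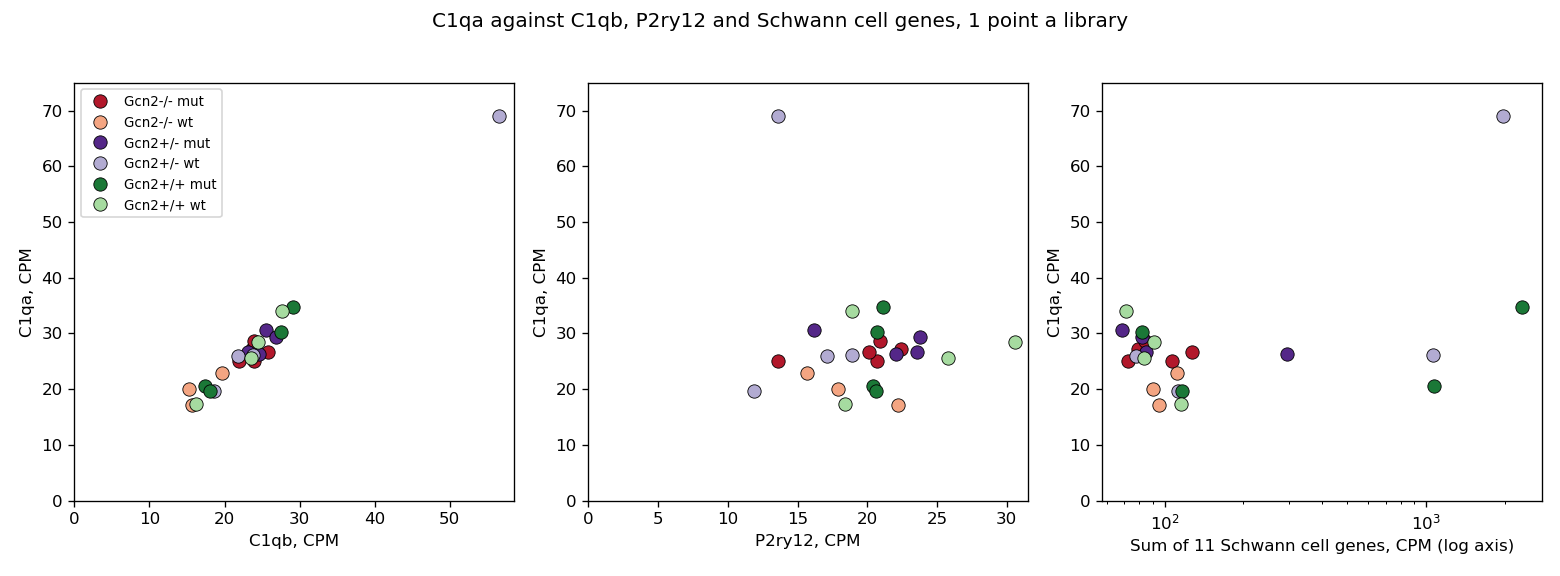
C1qa in CPM (vertical axis) against C1qb in CPM, P2ry12 in CPM and the summed CPM of 11 Schwann cell genes (log axis), with 1 point for each of the 24 libraries coloured by genotype. C1qa and C1qb lie on a line, C1qa and P2ry12 do not, and the point at 69.1 CPM of C1qa has 13.6 CPM of P2ry12 and a Schwann cell sum of 1970 CPM, while the library with 2330 CPM of Schwann cell genes has 34.8 CPM of C1qa.

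The first comparison was mutant against wild-type Gars within each Gcn2 genotype, tested with edgeR's quasi-likelihood test and Benjamini-Hochberg adjustment over all 17409 genes, with sex in the fit. In Gcn2+/+ mice, none of the resting receptor, C1q or TREM2 genes passed at an adjusted p of 0.05: 0 of 10 were called, where 0.632% of all genes were. An unadjusted p below 0.05 was found for 0 of 10, and for 17.3% of all genes. The log2 fold changes ran from -0.24 ± 0.18 (SE) for P2ry12 to 0.3 ± 0.28 for C1qc, with 7 of 10 above 0 and a median of 0.09. The 95% intervals reached from 0.582-fold for Trem2 to 1.85-fold for C1qc, and were narrower for some genes, such as 0.81-fold to 1.4-fold for Csf1r. For each gene, changes within its own interval were not excluded. DESeq2 also called 0 of the 10, and 648 of 15001 genes. The 2 mutant libraries high in Schwann cell genes are part of this group, and without them the median was -0.04, with 3 genes above 0.

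In Gcn2-/- mice all 10 log2 fold changes were above 0, from 0.11 ± 0.18 for P2ry12 to 0.46 ± 0.27 for C1qb and 0.46 ± 0.33 for Tyrobp, with a median of 0.38, beside a median of 0 over all genes. None was called: 0 of 10 at an adjusted p of 0.05 by edgeR's quasi-likelihood test or by DESeq2. Of all genes, edgeR called 0.0115% and DESeq2 27 of 17352. At an unadjusted p below 0.05 there were 0 of 10 by either test, and 4.35% of all genes by edgeR. Every mutant library lay above every wild-type library for 6 of the 10 genes (Tmem119, Csf1r, Aif1, C1qa, C1qb and Tyrobp), where 2.11% of all genes did so. These 6 genes move together from library to library and are not 6 independent observations, and the wild-type group holds 3 libraries. Those 3 are all in the lower set of title numbers, which also holds 2 of the mutant libraries (3 and 5). For the 6 genes, that these 2 lie above the 3 follows from the lack of overlap and is no further check. Among the other genes, mutant library 3 lay below all 3 for Cx3cr1 (30.5 CPM) and P2ry12 (13.6 CPM). For C1qc mutant libraries 3 and 5 (23.5 and 26.8 CPM) lay above the 3, and for Trem2 (5.43 and 6.62 CPM) the libraries overlapped. With a term for the sets of title numbers the median was 0.3 and 9 of 10 were above 0. The summed Schwann cell genes lay at 72.2 to 127 CPM in Gcn2-/- mutants and 90.6 to 111 CPM in Gcn2-/- mice with wild-type Gars, and border macrophage genes at 14.4 to 19.0 and 13.1 to 19.9 CPM.

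In Gcn2+/- mice the direction of the set depended on 1 library. With all libraries the median log2 fold change was -0.21 and 4 of 10 genes were above 0. Without wild-type library 3 the median was 0.22 and all 10 were above 0. P2ry12 was at 0.43 ± 0.18 (unadjusted p = 0.0268, adjusted p = 0.296 by edgeR's quasi-likelihood test), and at 0.39 (adjusted p = 0.476) without that library. The C1q genes were at -0.25 ± 0.29 (C1qa), -0.21 ± 0.26 (C1qb) and -0.34 ± 0.28 (C1qc), and at 0.27, 0.24 and 0.09 without it. By edgeR 0 of 10 were called, where 0.178% of all genes passed. DESeq2 called 0 of the members to which it gave an adjusted p, which Aif1 lacked, and 191 of 12658 genes. P2ry12 alone had an unadjusted p below 0.05 by edgeR, as did 14.7% of all genes.

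Averaged over the Gcn2 genotypes, mutant Gars gave log2 fold changes between -0.07 ± 0.18 for Trem2 and 0.17 ± 0.13 for Tmem119, with 9 of 10 above 0 and a median of 0.11. The intervals of the 10 genes all lay between 0.738-fold and 1.42-fold. By edgeR 0 of 10 were called, where 0.448% of all genes were. An unadjusted p below 0.05 was found for 0 of 10, and for 8.92% of all genes. DESeq2 called 0 members and 203 of 17352 genes. Without Gcn2+/- wild-type Gars library 3 the median was 0.23, all 10 were above 0, and the lowest adjusted p was 0.328 by edgeR.

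**Figure D3:**
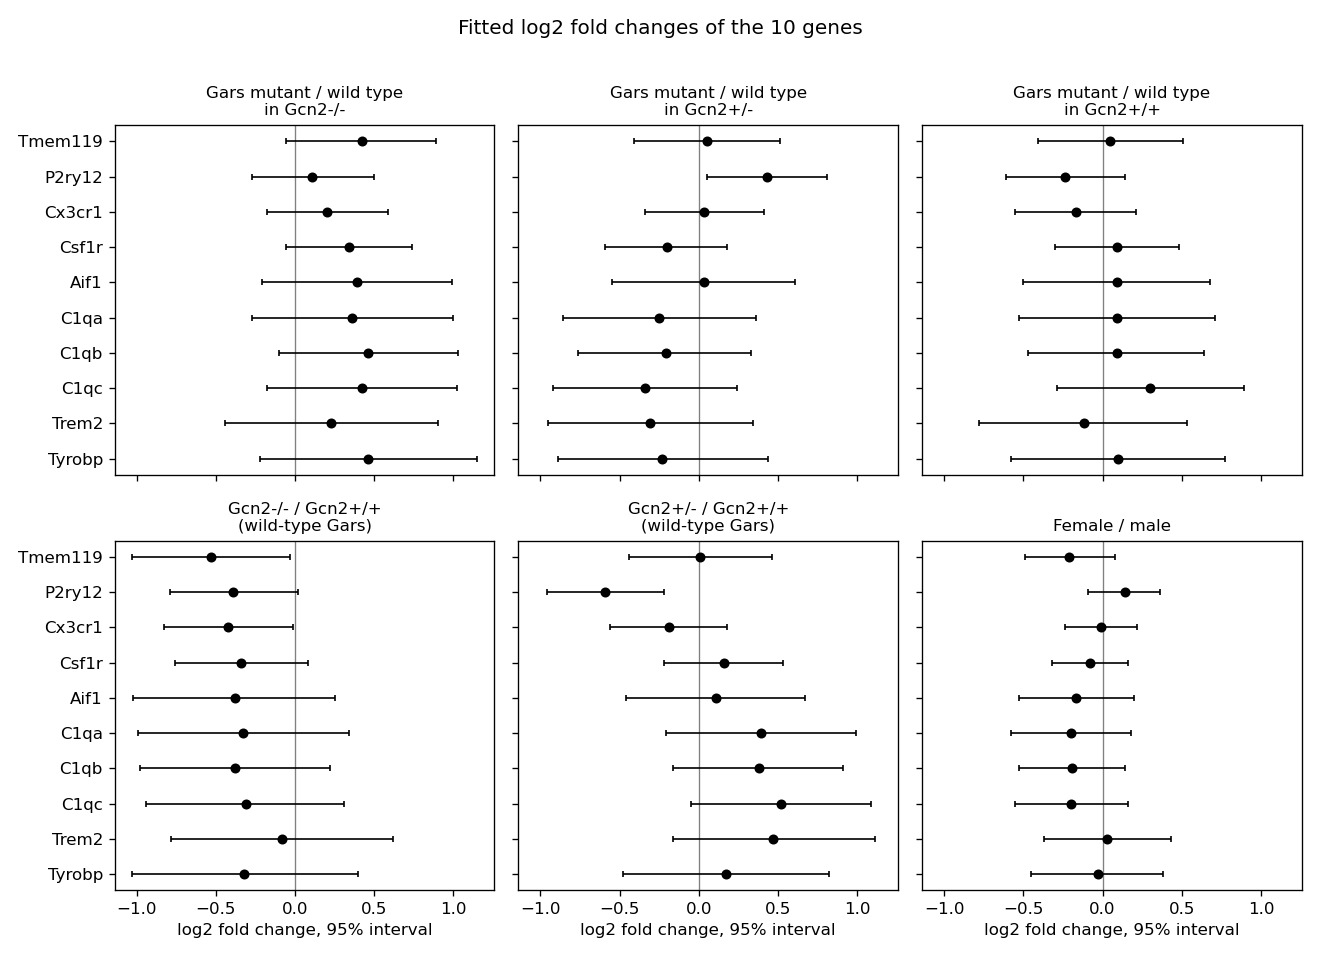
Fitted log2 fold changes of the 10 genes with 95% intervals (horizontal axis; 0 is no change) for mutant against wild-type Gars in each Gcn2 genotype, for Gcn2-/- and Gcn2+/- against Gcn2+/+ mice with wild-type Gars, and for females against males. All 10 points lie above 0 for mutant Gars in Gcn2-/- mice and below 0 for Gcn2-/- against Gcn2+/+ mice, 2 comparisons that share the 3 Gcn2-/- wild-type Gars libraries, and P2ry12 stands apart from the C1q genes in both Gcn2+/- panels.

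The effect of mutant Gars was compared between Gcn2 genotypes as the difference of the effects. For Gcn2-/- minus Gcn2+/+ mice all 10 differences were above 0, from 0.12 ± 0.4 for C1qc to 0.38 ± 0.38 for C1qb, with a median of 0.35. By edgeR 0 of 10 were called and the lowest adjusted p was 0.937, where 0.0115% of all genes were called. An unadjusted p below 0.05 was found for 0 of 10, and for 4.93% of all genes. DESeq2 called 0 members and 35 of 17352 genes. The standard errors here, 0.26 to 0.47, were as large as or larger than most of the differences, and this comparison uses the same Gcn2-/- libraries as the effect above. For Gcn2+/- minus Gcn2+/+ mice P2ry12 had a difference of 0.67 ± 0.25 (unadjusted p = 0.0143, adjusted p = 0.108 by edgeR's quasi-likelihood test; adjusted p = 0.069 by DESeq2). The C1q genes had differences of -0.34 ± 0.4 (C1qa), -0.3 ± 0.36 (C1qb) and -0.64 ± 0.38 (C1qc). The median over the set was -0.24 with 3 of 10 above 0, and 0.2 with 9 above 0 without Gcn2+/- wild-type Gars library 3. By edgeR 0 of 10 were called, where 3.7% of all genes were called, and 1 of 10 had an unadjusted p below 0.05, as did 23.4% of all genes. DESeq2 called 0 of 10 and 1696 of 16677 genes. This is the comparison in which nerve root genes differ most between the groups: 8 of 11 Schwann cell genes were called, all lower. Beside the 644 genes called, 0 were called with the mean of the Schwann cell genes as a covariate, and 0 without the 2 Gcn2+/+ mutant libraries high in them. With the title number as a block 0 were called as well, and without Gcn2+/- wild-type Gars library 3 the number was 3. Leaving out libraries also makes the groups smaller, and the part of nerve root in these calls was not tested.

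Loss of both Gcn2 copies was then compared with intact Gcn2 in mice with wild-type Gars. All 10 genes lay below 0, with a median of -0.36. Tmem119 was at -0.53 ± 0.24 (unadjusted p = 0.04) and Cx3cr1 at -0.42 ± 0.2 (unadjusted p = 0.0453), both with an adjusted p of 1 by edgeR's quasi-likelihood test, and Trem2 was closest to 0 at -0.08 ± 0.34. Tmem119 had 11.9, 7.61 and 10.6 CPM in Gcn2-/- mice, against 17.9, 14.7, 11.1 and 17.1 CPM in Gcn2+/+ mice. Cx3cr1 had 31.3, 33.6 and 35.7 CPM in Gcn2-/- mice, against 46.6, 49.7, 33.4 and 50.3 CPM in Gcn2+/+ mice. In both genes Gcn2+/+ library 3 lay among the Gcn2-/- libraries and the other Gcn2+/+ libraries above them. That library is also the only Gcn2+/+ wild-type Gars library in the lower set of title numbers, where all 3 Gcn2-/- libraries are. With a term for the sets of title numbers the median was -0.28, and Tmem119 and Cx3cr1 were at -0.35 and -0.27. By edgeR 0 of 10 were called, where 0.0287% of all genes were called, and DESeq2 called 0 members and 38 of 17352 genes. At an unadjusted p below 0.05 there were 2 of 10, and 3.68% of all genes.

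In mice with mutant Gars, Gcn2-/- against Gcn2+/+ gave log2 fold changes from -0.19 ± 0.26 (C1qc) to 0.28 ± 0.3 (Trem2), with a median of -0.05. By edgeR and by DESeq2 0 of 10 were called, where edgeR called 0.494% of all genes and DESeq2 249 of 17352. By edgeR 0 of 10 had an unadjusted p below 0.05, beside 10% of all genes.

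Loss of 1 Gcn2 copy gave the only call of the set, and only by 1 of the tests. In mice with wild-type Gars, P2ry12 was lower in Gcn2+/- than in Gcn2+/+ animals by edgeR's estimate (log2 fold change -0.59 ± 0.18, 0.665-fold with a 95% interval of 0.515 to 0.858), with an unadjusted p of 0.00331 and an adjusted p of 0.141 that missed the threshold. DESeq2 gave the same fold change with an adjusted p of 0.0416. Leaving out single libraries gave -0.72 to -0.44, with adjusted p between 0.0512 and 0.422, and without wild-type library 3 the value was -0.54 (adjusted p = 0.276). The C1q genes were at 0.39 ± 0.29 (C1qa), 0.38 ± 0.26 (C1qb) and 0.52 ± 0.27 (C1qc), and at -0.14, -0.1 and 0.07 without library 3, so the direction of C1qa and C1qb rested on that library. By edgeR 0 of the 10 genes were called and 1 had an unadjusted p below 0.05, where 0% of all genes were called, although 3001 (17.2%) were below an unadjusted 0.05 and DESeq2 called 459. The Gcn2+/- group holds 2 libraries with Schwann cell sums of 1060 and 1970 CPM, against 71.1 to 115 CPM in Gcn2+/+ mice with wild-type Gars. With the mean of those genes as a covariate, P2ry12 was at -0.61 (adjusted p = 0.203).

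In mice with mutant Gars, P2ry12 was at 0.08 ± 0.18 in Gcn2+/- against Gcn2+/+ animals, and the set ran from -0.15 ± 0.31 (Tyrobp) to 0.29 ± 0.31 (Trem2). Again 0 of 10 were called by edgeR, where 0% of all genes were called (1900 at an unadjusted p below 0.05, and 16 by DESeq2), and at that unadjusted level the members gave 0. A test for any difference among the 6 genotypes called 0 of 10 by edgeR and by DESeq2. Of all genes, edgeR called 0.73% in it and DESeq2 883 of 17352. P2ry12 was the lowest by edgeR (unadjusted p = 0.0628, adjusted p = 0.377). Females and males were close: log2 fold changes of females against males ran from -0.21 ± 0.13 (Tmem119) to 0.14 ± 0.11 (P2ry12). By edgeR or DESeq2 0 of 10 were called, and of all genes edgeR called 0.0804% and DESeq2 22 of 17352. At an unadjusted p below 0.05 edgeR gave 0 of 10, and 2.79% of all genes. Every interval of the sex comparison lay between 0.671-fold and 1.35-fold.

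The members varied together from library to library. Correlations of log2 CPM were computed for all 45 pairs over the 24 libraries, with 100000 permutations and adjustment over the 45 pairs. By Pearson's r 36 pairs passed and by Spearman's rho 34. The C1q pairs had r of 0.94 to 0.98 and rho of 0.84 to 0.93 (permutation p = 1e-05, the smallest that these permutations can give, adjusted p = 3.75e-05 for r and 7.5e-05 for rho), and r of 0.86 to 0.94 without the 2 libraries farthest from the median. Trem2 and Tyrobp with the C1q genes had r of 0.69 to 0.81, and Csf1r with the members other than P2ry12 had r of 0.7 to 0.91. Of the 36 pairs without P2ry12, 35 passed, with r from 0.34 to 0.98. Of the 9 pairs with P2ry12, only that with Cx3cr1 passed by Pearson's r (0.47, permutation p = 0.0203, adjusted p = 0.0254), with rho of 0.39 (permutation p = 0.0624, adjusted p = 0.0779). By rho only the pair with Aif1 passed (0.43, permutation p = 0.0361, adjusted p = 0.0478), and P2ry12 with the C1q genes had r of -0.21 to -0.07. Without Gcn2+/- wild-type Gars library 3 the r with P2ry12 ran from 0.05 to 0.63, and the C1q pairs from 0.88 to 0.95.

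The joint variation was not equal in both sets of title numbers. Among the 12 libraries of the lower set, which include Gcn2+/- wild-type Gars library 3, 34 of 45 pairs passed, with a median r of 0.75. Among the 12 of the higher set, 1 pair passed after adjustment, with a median r of 0.48, and the C1q pairs had r of 0.76 to 0.94. The C1q pairs had r of 0.96 to 0.98 in the lower set, and the difference between the sets was not tested. CPM scales out the total count, but the libraries differ in tissue content and in genotype group, and these correlations include both.

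**Figure D4:**
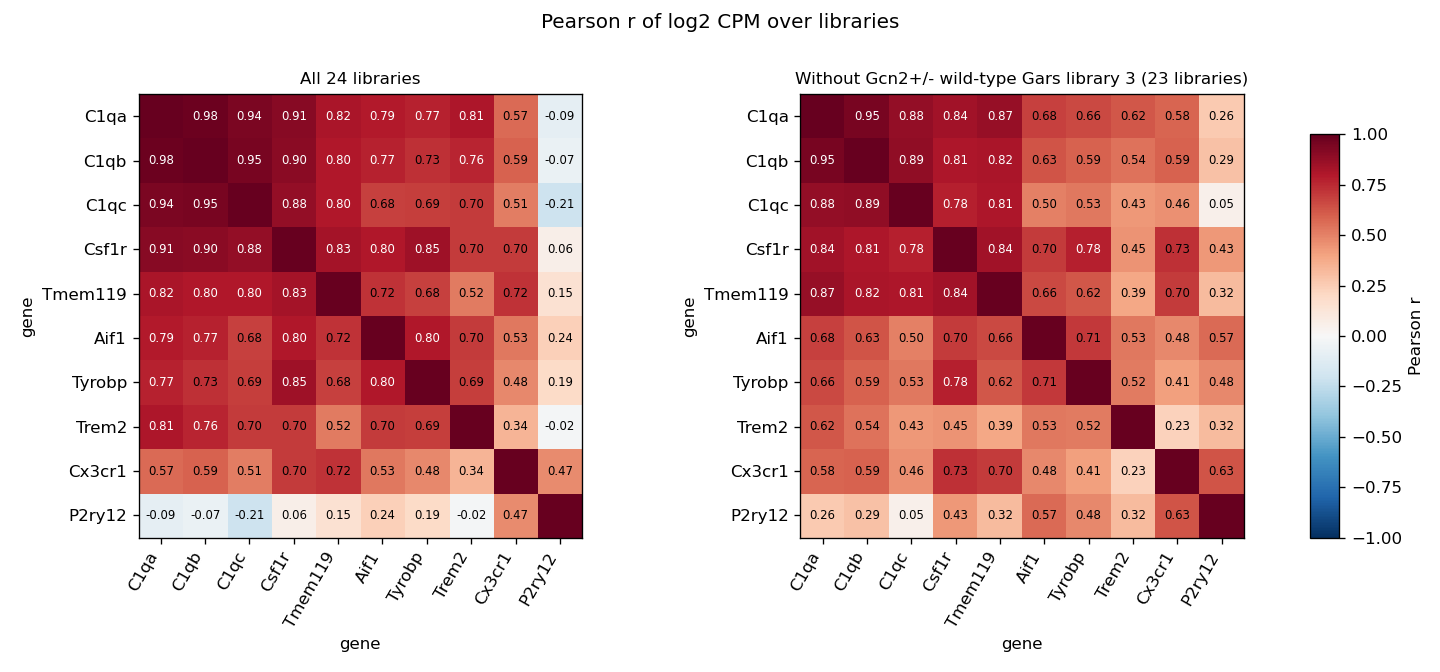
Pearson r of log2 CPM between each pair of the 10 genes, over all 24 libraries (left) and over the 23 libraries without Gcn2+/- wild-type Gars library 3 (right), with the colour scale from -1 to 1. The C1q genes, Csf1r and Tmem119 form a block of high r, and the row of P2ry12 runs from -0.21 to 0.47 on the left and from 0.05 to 0.63 on the right.

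The nearest genes outside the set were taken by Pearson r over the 24 libraries, among 14912 genes with a mean of at least 1 CPM. C1qa was closest to Ptpn6 (r = 0.86), a phosphatase of blood and myeloid cells, and to Irf8 (0.83), a transcription factor of microglia. C1qb was closest to Irf8 (0.87) and C1qc to Ptpn6 (0.86). Csf1r was closest to Fcer1g (0.9), an adaptor of Fc receptors, Tmem119 to Selplg (0.88), a selectin ligand known from resting microglia, and Tyrobp to Arhgap4 (0.82). Cx3cr1 was closest to Vsir (0.82), Aif1 to Csf2rb2 (0.82) and Trem2 to the proton channel gene Hvcn1 (0.76). P2ry12 was closest to Gpr34 (0.85), a lysophospholipid receptor of microglia from the same receptor family, then to Vldlr and Cdc42 (both 0.82). The next nearest genes of Tmem119 were Gusb (0.83) and Sirpa (0.8), and those of Cx3cr1 were Synpo (0.77) and Bin2 (0.76). In the list of genes ordered by r with C1qa, C1qb ranked 1, C1qc 2, Csf1r 3 and Tmem119 6, whereas Cx3cr1 ranked 306 and P2ry12 ranked 9159. Without Gcn2+/- wild-type Gars library 3, P2ry12 kept Gpr34 as its nearest gene (0.87) and ranked 2681 for C1qa, and Irf8 and Ptpn6 were no longer among the 3 nearest genes of C1qa, C1qb or C1qc.

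Other microglial genes from lists set beside the members were tested in the same fit. Of 19 tested resting microglia genes, 0 passed edgeR's test in any of the Gars effects or Gcn2 comparisons in wild-type Gars. Gpr34 was at -0.82 ± 0.24 in Gcn2+/- against Gcn2+/+ mice with wild-type Gars (adjusted p = 0.141 by edgeR). It was at 0.74 ± 0.25 for mutant against wild-type Gars in Gcn2+/- mice (adjusted p = 0.225 by edgeR), next to -0.59 and 0.43 for P2ry12. Gpr34 is the gene nearest to P2ry12 by r over these same libraries, so it is not a separate observation. The list had no common direction in Gcn2+/- against Gcn2+/+ mice with wild-type Gars. Chosen after their values were seen, Crybb1 and Cd53 were at -0.62 and -0.43, and Olfml3 and Ltc4s at 0.51 and 0.45. Among 18 tested genes of disease-associated microglia, 0 passed in Gcn2+/+ mice. Apoe, the lipid carrier of astrocytes and microglia, had 0.48 ± 0.11 there (adjusted p = 0.0502). Averaged over Gcn2 genotypes, 1 gene of this list fell, Spp1, which encodes osteopontin and is also expressed by motor neurons (-0.29 ± 0.06, adjusted p = 0.0336), and 0 rose. The list had 0 calls there with no sex term, when the title number was blocked, and without the 4 libraries high in Schwann cell genes. It also had 0 without library 1 of Gcn2+/+ mutant, 1 or 3 of Gcn2+/- mutant, 1 or 2 of Gcn2-/- mutant, 2 or 3 of Gcn2+/+ wild-type, 3 or 4 of Gcn2+/- wild-type, or 2 or 3 of Gcn2-/- wild-type Gars mice. In the difference of the Gars effect between Gcn2+/- and Gcn2+/+ mice 2 of the 18 were called, where 3.7% of all genes were, both lower: Apoe (-0.62 ± 0.15, adjusted p = 0.0399) and Cd9, a tetraspanin that Schwann cells also express (-1.34 ± 0.36, adjusted p = 0.0472). Both calls were lost when the title number was blocked, when Schwann cell expression entered as a covariate, and when the 2 or 4 libraries high in Schwann cell genes were left out. They were also lost with no filter on low genes, with only the groups compared in the fit, and without any 1 of libraries 2, 3 and 4 of Gcn2+/+ mutant, Gcn2+/+ wild-type Gars and Gcn2+/- mutant mice or library 3 of Gcn2+/- wild-type Gars mice.

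Further down the complement cascade, 0 of 22 tested genes passed edgeR's test for mutant Gars in any Gcn2 genotype. In the difference of the Gars effect between Gcn2+/- and Gcn2+/+ mice 3 of the 22 passed, where 3.7% of all genes did, all lower. These were Serping1, the C1 inhibitor (-4.49 ± 1.01, adjusted p = 0.0399), Clu, the chaperone clusterin (-0.56 ± 0.13, adjusted p = 0.0399), and C1ra, a protease that C1q activates (-2.74 ± 0.69, adjusted p = 0.0423). Beside them 8 of 11 Schwann cell genes and 3 of 10 meningeal genes passed in the same direction, and the highest levels of Serping1 (57.8 CPM) and of the Schwann cell sum (2330 CPM) fell in the same library, Gcn2+/+ mutant library 4. All 3 complement calls were lost (0 of 22) in the same alternatives and without the same single libraries as those of Apoe and Cd9, and leaving out 1 of the others gave 2 to 4 calls. For TREM2 and TYROBP signalling, 0 of 14 tested genes passed in each of the Gars effects, and among 14 genes of ligands and transcription factors of the receptors 0 passed, with the CSF1R ligand gene Il34 at 0.48 ± 0.16 in Gcn2+/+ mice (adjusted p = 0.147). Of 13 tested cytokine and interferon genes 0 passed in each of the Gars effects. Border macrophage genes passed in 0 of 8 in each of them.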

How the data were processed

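RNA of whole spinal cord from 24 mice was sequenced after poly(A) selection, per the labels' protocols, which name a stranded KAPA kit and a second KAPA kit without saying which library had which. Each deposited file holds expected counts and TPM per gene, which the authors made with Bowtie2 2.2.0 and RSEM 1.2.12 (source: the submitters' processing notes). The genome build, the annotation and the strand setting of the counting are, for these files, not given in the sources used here. Deposited expected counts share out reads that match several genes. Of the members, P2ry12, Cx3cr1 and Csf1r overlap other genes (Med12l, Wdr48, Ttc21a and Hmgxb3 on the opposite strand, and Gorasp1, Csrnp1 and Xirp1 on the same strand as Cx3cr1), so reads of such pairs may be mixed. Symbols and positions are from GENCODE M21, which matched 37607 of 38924 identifiers. Unmatched genes held 0.261% of counts.

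Expected counts were rounded, filtered with filterByExpr (17409 genes left), given TMM scaling factors and fitted in edgeR 4.0.16 (R 4.3.3; quasi-likelihood test), in 1 fit of 6 genotype groups and sex. The threshold for a call was 0.05 after Benjamini-Hochberg adjustment over all tested genes. Values after ± are standard errors for log2 fold changes and SDs for levels. Intervals are at 95%. The common biological coefficient of variation was 0.225, and that of the members ran from 0.178 (P2ry12) to 0.305 (Tyrobp). The fit was also run on simulated counts, for mutant Gars in Gcn2+/+ mice and for the Gcn2-/- minus Gcn2+/+ difference. Those counts held no differences in tissue content between libraries, so they do not check the fit under such differences. Correlations used log2 CPM with a prior count of 2 in scipy 1.17.1. Alternatives were DESeq2 1.42.0, its size factors, no filter on low genes, no sex term, only the groups compared, the title numbers as a block or in 2 sets, the Schwann cell genes as a covariate, and leaving out libraries.

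The members and lists were chosen with earlier results of these data known. Genes outside the set are named by rule: of each list, up to 2 with the smallest p in a comparison described, and for each member the 3 nearest genes by r, with exceptions marked in the text, and C1ra, which was picked with its value known as the third called complement gene. Libraries are numbered within a group in accession order, and such numbers pair no animals.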

Additional observations from a re-analysis of the deposited data

Results flagged for a closer look

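The genes were checked in the 5 groups of 4 or 5 libraries for a library far from the others by Dixon's criterion, and 5 of 50 gene and group combinations stood out, where chance gives about 1 in 20. In Gcn2+/- mice with wild-type Gars, library 3 stood apart for C1qa (69.1 CPM, others 19.6 to 26.2), for C1qb (56.5 CPM, others 18.6 to 23.8) and for C1qc (58.8 CPM, others 20.9 to 24.9). These 3 genes vary together and are not separate flags. In Gcn2-/- mutants, library 3 was low for P2ry12 at 13.6 CPM, with the others at 20.1 to 22.4 CPM. In Gcn2+/+ mutants, library 4 was high for Trem2 at 7.63 CPM, with the others at 4.6 to 5.11 CPM, and it is the library with the highest sums of Schwann cell, meningeal and border macrophage genes. The part of those tissues in these values was not tested.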

How the results depend on the processing

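Over 12 comparisons and all alternatives, 287 of 288 combinations called 0 members. The exception was DESeq2 for Gcn2+/- against Gcn2+/+ mice with wild-type Gars, with 1 member called (P2ry12, adjusted p = 0.0416), and the cause of the difference from edgeR was not tested. The number of correlated pairs was 36 of 45 with all libraries and 33 to 37 leaving out 1 library, but 1 among the 12 libraries in the higher set of title numbers, fewer samples being used. Of 2540 refitted fold changes of members, 139 moved by over 1 standard error. No animals are known to be paired. With the title number as a replicate block, 0 members were called in every comparison, and P2ry12 in Gcn2+/- against Gcn2+/+ mice with wild-type Gars was at -0.62 (adjusted p = 0.323). The block turned the median of the members to 0.35 for mutant Gars in Gcn2+/- mice (-0.21 without it), to 0.44 for the Gcn2+/- minus Gcn2+/+ difference (-0.24) and to -0.31 for Gcn2+/- against Gcn2+/+ mice with wild-type Gars (0.16). Gcn2+/- wild-type Gars library 3 is the only library with its title number, so the block also takes it out of these comparisons. The same holds for Gcn2+/- mutant library 4, in the comparisons that use Gcn2+/- mutants. Gcn2-/- wild-type Gars library 3 also has a title number of its own. The part of each in the turned medians was not tested. Leaving out Gcn2+/- wild-type Gars library 3 alone gave 0.2 for the difference and -0.15 for Gcn2+/- against Gcn2+/+ mice with wild-type Gars. Without Gcn2+/- wild-type Gars library 3 the median of the members was 0.22 for mutant against wild-type Gars in Gcn2+/- mice, where it was -0.21 with all libraries and 0.14 with the Schwann cell covariate. In Gcn2+/+ mice that covariate gave -0.23 where the median was 0.09 without it. Leaving out the 4 libraries with high Schwann cell genes was chosen after seeing the data and gave 0 calls. Of 1728 counts of called list genes, 79 moved, either by over 1.5 times or from or to 0.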
